A study of Mus musculus with 4 samples.

Results

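The peroxisome genes of mouse ventricle were examined here, 22 genes of 8251 that a probe set of the array names alone. They were taken by name from a list of 21 symbols for peroxisomal membrane proteins and enzymes, drawn up with earlier results of these data known, and extended by every gene whose symbol is Pex followed by a digit. Of the 21 listed symbols 15 had a probe set with 1 gene symbol, and 7 further Pex genes were added. Pxmp4, Agps, Hacl1, Decr2, Hao1 and Paox are not analysed here. Where a gene had several probe sets, the one with the highest mean over all 4 arrays stood for it, which chose among 29 probe sets.

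The ventricles came from mice at 6 months of age. One group was transgenic, with moderate overexpression of serum response factor (SRF) specific to the heart (2 arrays), and the other was non-transgenic, described in the series design as wild type (2 arrays). SRF controls muscle and cytoskeletal genes through CArG boxes, short AT-rich elements in their promoters. The promoter that drives the transgene, the strain and the number of founder lines are not stated in these sources. Nothing says whether each array stands for its own animal, so a p-value here covers only array-to-array spread, which may be technical. No value for Srf is reported here, so the overexpression itself is unchecked. The arrays were alike in brightness, with median signals of 49.0 and 50.6 on the transgenic and 53.9 and 52.3 on the non-transgenic arrays.

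Peroxisomes are organelles bounded by 1 membrane that shorten very long and branched fatty acids, make the first steps of ether lipids and break down hydrogen peroxide. Peroxins, the products of the Pex genes, insert their membrane proteins, carry folded enzymes across the membrane and divide the organelle. In heart they are small and few compared with liver, where PPAR-alpha, a nuclear receptor that pairs with RXR, raises the genes of peroxisomal oxidation when fatty acids or drugs activate it. Heart muscle takes most of its energy from fatty acid oxidation in mitochondria, and several enzymes are shared by both organelles.

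Transgenic ventricle had less RNA for a peroxin of peroxisome division, Pex11a, for the membrane channel protein Pxmp2 and for the dehydrogenase-like enzyme Hsdl2, each between 1.58 and 1.69-fold lower. Of the 22 genes 20 passed the filter on dim signal and were tested. Of these 3 fell, 0 rose, and the other 17 did not pass (limma, Benjamini-Hochberg adjustment over 7453 probe sets, threshold 0.05). Among all tested probe sets 3.86% fell and 4.07% rose, against 3 of 20 and 0 of 20 here. Those shares count every tested probe set, while each peroxisome gene is counted by its brightest probe set only. Of the 20 genes 6 had an unadjusted p below 0.05 (limma), against 1802 of all 7453 tested probe sets. The log2 change was below 0 in 18 of 20 genes, with a median of -0.22, while it was below 0 in 51.3% of all tested probe sets, whose median was -0.01. Both transgenic arrays lay below both non-transgenic arrays in 12 of 20 genes, against 28.1% of all tested probe sets. Centring each array on its median left 16 of 20 log2 changes below 0, with a median of -0.14. The same centring moved the median over all tested probe sets up by 0.08. Leaving out non-transgenic replicate 1, with no centring, left 15 of 20 below 0. The 3 falls depended on the variance model of limma. With no trend of variance on signal 0 of the 20 genes passed, with adjusted p values of 0.0731 for Pex11a, 0.0853 for Pxmp2 and 0.0700 for Hsdl2, and the calls over all probe sets dropped to 44 higher and 34 lower.

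**Figure D1:**
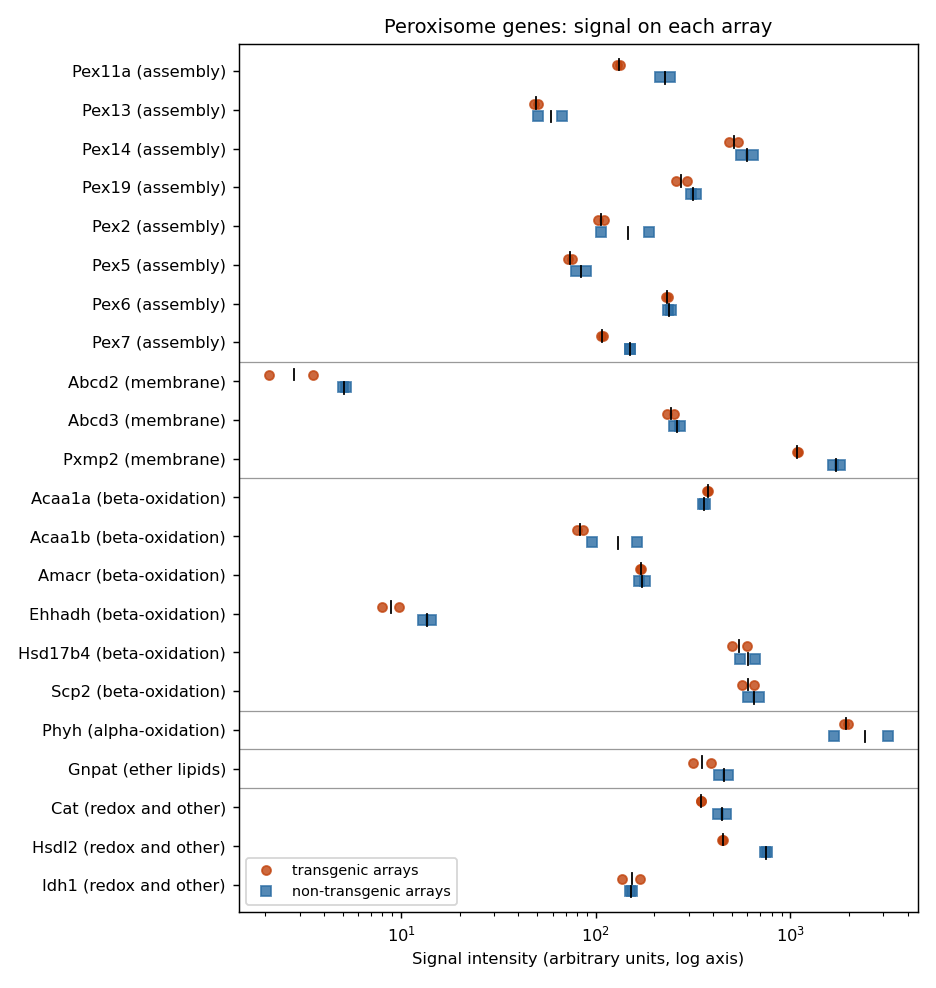
Signal intensity of each peroxisome gene on each array (horizontal log axis, arbitrary units), with transgenic arrays as circles above and non-transgenic arrays as squares below, vertical bars at the group means, and genes grouped by role. The groups lie clearly apart for Pex11a, Pxmp2 and Hsdl2, while Phyh and Pex2 show a wide gap between the non-transgenic arrays; levels of different genes are not comparable, since each probe set has its own brightness.

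Pex11a, which elongates and divides peroxisomes and is the inducible form of its family, had a signal of 133 and 129 on the transgenic arrays, against 240 and 215 on the non-transgenic arrays (probe set 103660_at). The groups did not overlap, and the transgenic arrays lay close together. The means were 131 ± 2.90 in transgenic and 227 ± 17.6 in non-transgenic ventricle (SD, n = 2 each), a log2 change of -0.75 ± 0.14 (SE; adjusted p = 0.0234, limma). The call ended when non-transgenic replicate 1 (adjusted p = 0.0786, limma), transgenic replicate 1 (0.0681) or transgenic replicate 2 (0.0723) was left out, with log2 changes from -0.83 to -0.68.

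The 2 promoters that RefSeq-derived tables hold for the 3 genes that fell are printed here because they are the regulatory sequence next to the genes that carry the result; Pxmp2 is named only. Each line gives bases upstream of the annotated gene, 5′ to 3′ on the strand of the gene, build GRCm38.p6, with GC boxes in capitals; the Hsdl2 line is shorter because it stops where the annotated gene begins. The first is chr7:79743132-79743381 on the minus strand and the second chr4:59581313-59581516 on the plus strand.
Pex11a: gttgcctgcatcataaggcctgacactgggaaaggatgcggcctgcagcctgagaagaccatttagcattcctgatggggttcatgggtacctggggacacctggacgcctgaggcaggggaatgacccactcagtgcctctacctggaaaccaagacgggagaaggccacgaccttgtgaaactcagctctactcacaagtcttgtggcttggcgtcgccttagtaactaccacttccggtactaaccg
Hsdl2: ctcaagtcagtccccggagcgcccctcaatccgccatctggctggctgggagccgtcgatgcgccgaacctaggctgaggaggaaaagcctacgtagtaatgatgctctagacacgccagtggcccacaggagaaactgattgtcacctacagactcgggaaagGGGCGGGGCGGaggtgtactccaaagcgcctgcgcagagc

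A set of 6 motifs was looked for on both strands: the CArG box that SRF binds, the DR1 element AGGTCANAGGTCA that PPAR and RXR bind, its repeat unit AGGTCA, the GC box GGGCGG, the CCAAT box and the TATA box. The DR1 element contains the repeat unit. The Hsdl2 sequence held a pair of GC boxes that share a base, at bases 165 to 170 and 170 to 175, and none of the other motifs, and the Pex11a sequence held none of the 6. Over the 32851 promoters in the table, read over the 250 bases before the start, 1.47% held a CArG box and 0.0335% the DR1 element. The repeat unit was in 14.0%, a GC box in 32.7%, a CCAAT box in 33.8% and a TATA box in 12.4%. Of 20 promoters of 16 peroxisome genes, 1 held a CArG box (Scp2), 2 the repeat unit (Cat and Scp2) and 0 the DR1 element. A GC box was in 13 of the 20, a CCAAT box in 8 and a TATA box in 1 (Pex14). A match is only a run of letters in this window.

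The remaining 7 peroxins did not pass the test. Pex7, the receptor that brings in enzymes with the second type of targeting signal, had 108 and 106 on the transgenic arrays, against 150.3 on both non-transgenic arrays, a log2 change of -0.46 ± 0.15 (SE; adjusted p = 0.115, limma) with no overlap between groups. Pex2, a membrane ubiquitin ligase of receptor recycling, had 103 and 109.5 on the transgenic arrays, against 107 and 187 on the non-transgenic arrays. The whole distance between the Pex2 means came from non-transgenic replicate 2, since the log2 change was -0.0062 against replicate 1 alone and -0.77 against replicate 2 alone. Pex14, which docks loaded receptors at the membrane, had 483 and 539 on the transgenic arrays, against 556 and 642 on the non-transgenic arrays, a log2 change of -0.22 ± 0.12. Its docking partner Pex13 (-0.21), the main import receptor Pex5 (-0.17), the membrane protein chaperone Pex19 (-0.20) and Pex6 (-0.04), an ATPase that pulls receptors back out, had smaller log2 changes. All 8 peroxins had log2 changes below 0, except that Pex6 was at 0.04 after median centring.

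The membrane proteins moved unequally. Pxmp2, a channel of the peroxisomal membrane for small metabolites, had 1089 and 1078 on the transgenic arrays, against 1799 and 1649 on the non-transgenic arrays (probe set 104098_at). Every transgenic array was below every non-transgenic array. The means were 1084 ± 7.92 in transgenic and 1724 ± 106 in non-transgenic ventricle (SD, n = 2 each), a log2 change of -0.66 ± 0.09 (SE; adjusted p = 0.00704, limma). Leaving out any 1 of the 4 arrays kept the call (adjusted p from 0.0149 to 0.0259, limma). Abcd3, the transporter of long acyl-CoA into peroxisomes, had 233 and 251 on the transgenic arrays, against 252.5 and 272 on the non-transgenic arrays, a log2 change of -0.11 with a 95% interval from -0.41 to 0.19. The related transporter Abcd2 was dim on all arrays, at 2.10 and 3.50 in transgenic and 5.20 and 5.0 in non-transgenic ventricle, and was not tested.

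Among the 22 genes, enzymes of peroxisomal beta-oxidation did not pass the test in any of 5 tested cases. The isomerases Ech1 and Eci2, which are not among the 22 and did fall, are given further below. Hsd17b4, the bifunctional enzyme for branched and very long chains, had 596 and 499 on the transgenic arrays, against 657 and 549.8 on the non-transgenic arrays, and the groups overlapped. Scp2, which encodes a sterol carrier and a thiolase, had 647 and 564 on the transgenic arrays, against 692 and 604 on the non-transgenic arrays. The arrays of the groups overlapped for Scp2 as well. Amacr, the racemase of branched acyl-CoA, had 171 and 169 on the transgenic arrays, against 179 and 168 on the non-transgenic arrays. The thiolase Acaa1a had 379 and 371 on the transgenic arrays, against 355 and 366 on the non-transgenic arrays. Acaa1a was the 1 tested gene with both transgenic arrays above both non-transgenic arrays, at a log2 change of 0.06 with a 95% interval from -0.20 to 0.31.

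The closely related thiolase Acaa1b had 80.0 and 85.8 on the transgenic arrays, against 95.9 and 164 on the non-transgenic arrays, a log2 change of -0.55 ± 0.25 (SE; adjusted p = 0.231, limma). Its size rested on non-transgenic replicate 2, with -0.19 against replicate 1 alone and -0.91 against replicate 2 alone. Acaa1a and Acaa1b are near-identical, so their probe sets may share signal. Ehhadh, the inducible bifunctional enzyme, was dim, at 9.70 and 8.0 in transgenic and 12.9 and 14.2 in non-transgenic ventricle, and was not tested.

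Phyh, which starts alpha-oxidation of the branched fatty acid phytanate, was a gene whose result turned on 1 array. Its signal was 1893 and 1984 on the transgenic arrays, against 3157 and 1670 on the non-transgenic arrays. The transgenic arrays lay between the non-transgenic arrays. The log2 change was -0.24 ± 0.25 (SE), and 0.21 without non-transgenic replicate 1 (adjusted p = 0.247, limma). Without non-transgenic replicate 2 it was -0.70 (adjusted p = 0.0129, limma).

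Gnpat, which makes the first step of ether lipid synthesis, had 390 and 317 on the transgenic arrays, against 430 and 476 on the non-transgenic arrays. The groups did not overlap, and the log2 change of -0.36 ± 0.14 (SE) did not pass (adjusted p = 0.169, limma). The cytosolic and peroxisomal isocitrate dehydrogenase Idh1, a source of NADPH, had 169 and 136 on the transgenic arrays, against 153 and 150.2 on the non-transgenic arrays, so that the transgenic arrays lay on either side.

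Hsdl2, a short-chain dehydrogenase-like protein of peroxisomes that carries a sterol carrier domain, had 446 and 452 on the transgenic arrays, against 754 and 737 on the non-transgenic arrays (probe set 96096_f_at). The groups were far apart relative to the gap within each. The means were 449 ± 4.74 in transgenic and 746 ± 12.3 in non-transgenic ventricle (SD, n = 2 each), a log2 change of -0.72 ± 0.10 (SE; adjusted p = 0.00882, limma). It passed whichever of the 4 arrays was dropped (adjusted p from 0.0191 to 0.0281, limma). The suffix f marks a probe set whose probes can match several members of a sequence family. The second Hsdl2 probe set, 96095_i_at, had 212 and 205 on the transgenic arrays, against 327 and 263 on the non-transgenic arrays, again without overlap, but its log2 change of -0.48 ± 0.15 did not pass (adjusted p = 0.104, limma).

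Catalase, Cat, which splits hydrogen peroxide, gave opposite directions by probe set. The brighter probe set, 160479_at, had 345.5 and 345.7 on the transgenic arrays, against 426 and 466 on the non-transgenic arrays, a log2 change of -0.36 ± 0.11 (SE; adjusted p = 0.108, limma). The other, 161877_f_at, had 198 and 211 on the transgenic arrays, against 169 and 183 on the non-transgenic arrays, a log2 change of 0.21 ± 0.14 (adjusted p = 0.398, limma). In neither did the groups overlap, so the arrays give no settled direction for Cat. Of the 6 genes with several probe sets, Pex14 also had a probe set of the other sign, 100028_r_at (0.37), whose non-transgenic arrays stood at 77.6 and 27.5. The remaining Pex14 probe set, 100027_s_at, was at -0.31. The further probe sets of Scp2 (-0.29) and Acaa1b (-0.11) had the sign of the brighter one, and the second for Pex19 was near 0 signal on all arrays.

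**Figure D2:**
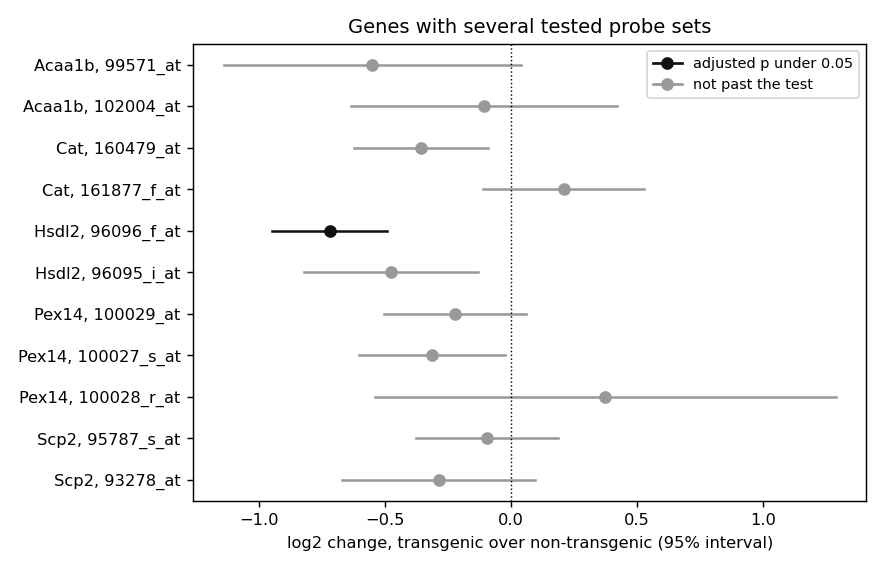
Log2 change, transgenic over non-transgenic (horizontal axis, 95% interval as a line), for each tested probe set of the genes that had more than 1. Black marks an adjusted p below 0.05, and only the brighter Hsdl2 probe set is black, at -0.72; the 2 Cat probe sets lie at -0.36 and 0.21 on either side of 0.

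For the 17 genes that did not pass, the size of a difference was still bounded, taking the brightest probe set of each gene. The 95% interval of the log2 change stayed within -1 and 1, a 2-fold difference in either direction, for 16 of them, and Acaa1b was the exception with an interval from -1.14 to 0.04. The interval included 0 for 14 of the 17 and lay below 0 for Pex7, Gnpat and Cat, at this level with no adjustment for the number of genes. These intervals rest on 2 arrays per group and on the spread that limma shares between genes. The Pex14 probe set 100028_r_at, not its brightest, had an interval from -0.54 to 1.29, beyond a 2-fold difference.

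**Figure D3:**
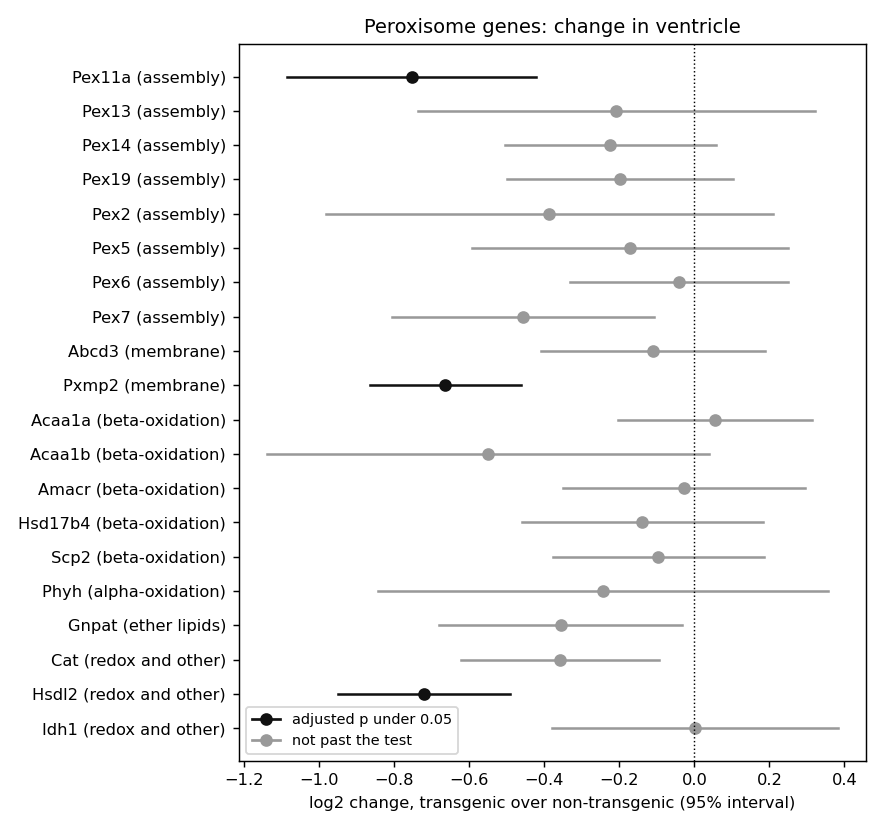
Log2 change of the 20 tested peroxisome genes, transgenic over non-transgenic (horizontal axis), with 95% intervals as lines and genes ordered by role. Pex11a (-0.75), Hsdl2 (-0.72) and Pxmp2 (-0.66), in black, passed the test; most of the others lie between -0.5 and 0.1 with intervals that cross 0.

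Liver is rich in peroxisomes, and transcripts typical of liver cells were bright on the non-transgenic arrays. Of 24 measured hepatocyte markers 15 were tested and 12 fell, against 3.86% of all tested probe sets, with a median log2 change of -2.70. The summed signal of the 24 was 562.5 and 595 on the transgenic arrays, against 4256 and 7710 on the non-transgenic arrays. Of the 15 tested markers 10 had a transgenic mean below the signal of the filter, about 30.0, and were tested only because they were bright on the non-transgenic arrays. Over all 24, both transgenic arrays lay below both non-transgenic arrays in 23, against 28.1% of all tested probe sets. That share holds tested probe sets only, while 9 of the 24 markers were not tested. On both transgenic arrays 17 of the 24 were below a signal of 30.0, such as the apolipoprotein Apoa1 at 10.2 and 11.5, against 505 and 836 on the non-transgenic arrays. Others kept signal there, with the monooxygenase Cyp2e1 at 103 and 125 on the transgenic arrays, against 375 and 742 on the non-transgenic arrays, and albumin, Alb, at 50.3 and 35.7, against 855.5 and 1737.5. All 15 tested markers were higher on non-transgenic replicate 2 than on replicate 1, with a median log2 ratio of 0.94. The peroxisome genes had a median log2 ratio of -0.01 between the same arrays, and 9 of 20 were higher on replicate 2. The ratio was -0.15 for Pex11a, -0.13 for Pxmp2 and -0.03 for Hsdl2, and it was 0.76 for Pex2 and 0.72 for Acaa1b. Both non-transgenic arrays carried hepatocyte transcripts, and the part of liver RNA in the values of the peroxisome genes, the 3 that fell included, was not tested. Uox, a urate oxidase of liver peroxisomes, was at 1.30 and 2.60 on the transgenic arrays, against 21.9 and 35.1 on the non-transgenic arrays, below the filter.

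**Figure D4:**
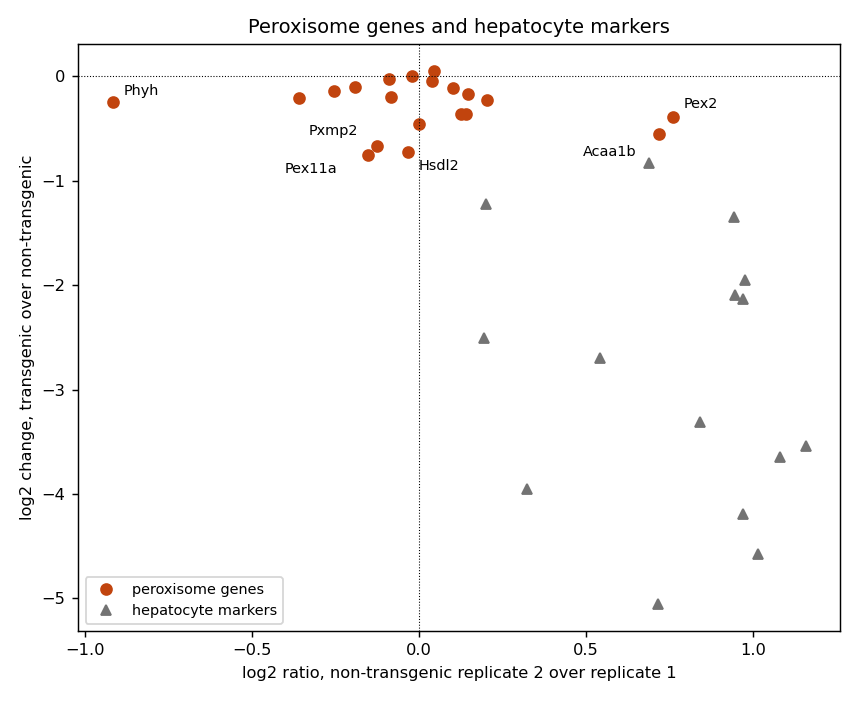
Log2 ratio of non-transgenic replicate 2 over replicate 1 (horizontal axis) and log2 change, transgenic over non-transgenic (vertical axis), for the 20 tested peroxisome genes (circles) and the 15 tested hepatocyte markers (triangles). The markers lie at ratios from 0.20 to 1.16, while Pex11a, Pxmp2 and Hsdl2 lie at or left of 0 and Pex2 and Acaa1b lie near 0.7; both axes use the non-transgenic arrays, so the points are a description only.

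Other cell types also moved in these bulk samples, where fewer cells of a type and less RNA per cell cannot be told apart. For every count of markers here, the shares over all tested probe sets were 3.86% lower and 4.07% higher. Cardiomyocyte markers fell in 5 of 9 tested cases with a median log2 change of -0.26. Their summed signal was 59663 and 61452 on the transgenic arrays, against 77942 and 76303 on the non-transgenic arrays. Fibroblast markers rose in 8 of 9 cases (median 0.80), macrophage markers in 5 of 9 (median 0.66), and endothelial markers had 1 higher and 1 lower of 8. Each marker gene was counted by its brightest probe set. Further tested probe sets of Col1a1 (0.25), Col1a2 (-0.17) and Col3a1 (0.11 and 0.68) did not pass. Pdgfra was at -0.51 on its brightest probe set and 0.75 on the next, and neither passed. Adipocyte markers fell in 2 of 5 cases, the adipocyte hormone Adipoq (73.8 and 74.6 in transgenic, against 175 and 238 in non-transgenic ventricle) and the lipase Lpl, which heart muscle also makes. Of 6 measured markers of the kidney proximal tubule 0 were bright enough to be tested. The part of these cell types in the peroxisome results was not tested.

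Other genes of peroxisomes, from a list that held none of the 22, fell more often than they rose. Of 31 measured 24 were tested, 5 fell, 1 rose and 18 did not pass, with a median log2 change of -0.09, against the 3.86% and 4.07% given above for all tested probe sets. With no trend of variance on signal 0 of the 24 passed. The falls were of enzymes that mitochondria hold as well. Gstk1, a glutathione transferase of peroxisomes and mitochondria, had 245 and 192 on the transgenic arrays, against 501 and 530.3 on the non-transgenic arrays. The groups lay far apart, and the log2 change was -1.21 ± 0.14 (SE; adjusted p = 0.00528, limma). Eci2, an isomerase of unsaturated fatty acyl-CoA, had 489 and 498 on the transgenic arrays, against 793 and 735.5 on the non-transgenic arrays, a log2 change of -0.62 ± 0.10 (adjusted p = 0.0147, limma). The carnitine acetyltransferase Crat (-0.62), the dienoyl-CoA isomerase Ech1 (-0.93) and the malonyl-CoA decarboxylase Mlycd (-0.48) fell too.

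Dropping each of the 4 arrays in turn left the calls of Ech1, Crat and Gstk1 in place every time, that of Eci2 in 3 cases and that of Mlycd in 1. Eci2 missed without non-transgenic replicate 1 (adjusted p = 0.0503, limma). Mlycd missed without non-transgenic replicate 1 or either transgenic array (highest adjusted p = 0.141, limma), and also after median centring (adjusted p = 0.0588, limma). The second probe set for Crat had a log2 change of -0.32 and did not pass (adjusted p = 0.310, limma). Slc27a4, an acyl-CoA synthetase of fatty acid uptake, rose to 67.6 and 74.1 on the transgenic arrays, against 28.9 and 19.9 on the non-transgenic arrays. Both non-transgenic values lie below the signal of the filter, about 30.0, so Slc27a4 was tested only because it was bright on the transgenic arrays, and the 1 rise of the list is a description. It stayed past the test when non-transgenic replicate 1 was dropped, and missed without any 1 of the other arrays (highest adjusted p = 0.130, limma) and with no filter (0.0806).

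**Figure D5:**
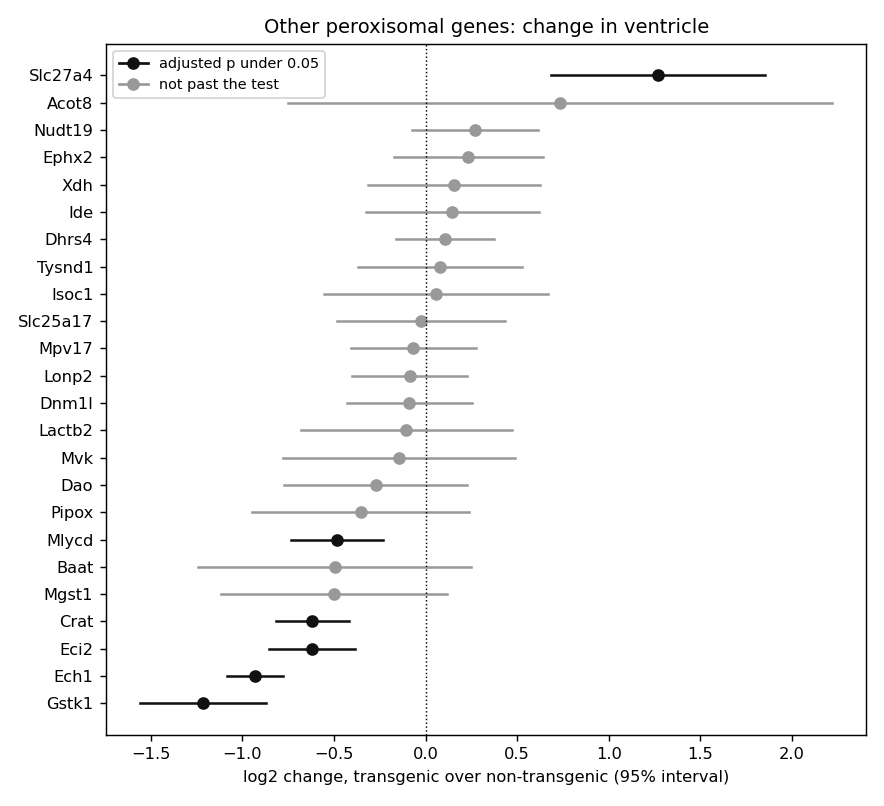
Log2 change of the 24 tested other peroxisomal genes, transgenic over non-transgenic (horizontal axis), with 95% intervals as lines, ordered by size. Slc27a4 (1.27) lies alone at the high end, and Gstk1 (-1.21), Ech1 (-0.93), Eci2 (-0.62), Crat (-0.62) and Mlycd (-0.48), in black, passed at the low end.

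Of the nuclear receptors and partners that act on peroxisomal genes, 10 were tested, 1 fell, 0 rose and 9 did not pass. Over all tested probe sets 3.86% fell and 4.07% rose. Ppara, the receptor itself, had 265 and 246 on the transgenic arrays, against 214 and 237 on the non-transgenic arrays, with no overlap, a log2 change of 0.17 ± 0.13 (SE; adjusted p = 0.463, limma). Its 95% interval excluded a 2-fold difference. Esrra, an orphan receptor of oxidative metabolism, had 764 and 774 on the transgenic arrays, against 1015 and 1041 on the non-transgenic arrays, a log2 change of -0.41 ± 0.09 (adjusted p = 0.0345, limma), while its second probe set was at -0.14. The call of Esrra ended without any 1 of the 4 arrays (adjusted p from 0.0808 to 0.132, limma), after median centring (0.0754), with no filter (0.0546) and with no variance trend (0.155).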

How the data were processed

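Affymetrix oligonucleotide arrays of biotin-labelled ventricular RNA were used, 2 per group. The deposited table holds linear signal intensity, 1 value for each probe set on each array. The linear scale was judged from the values, and the software is not stated in these sources. Trimmed means were equal across arrays, as scaling to 1 level would give. Of 12488 probe sets 66 controls were left out. Names came from the platform annotation (10833 with 1 symbol, 396 with several, left unnamed, and 1193 not listed).

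Values were taken as log2(value + 9), where 9 is the rounded 20th percentile of positive values, which understates the change of dim genes. Dim probe sets (the 40% with the lowest mean of these log2 values over the 4 arrays, equal to a signal of about 30.0 on every array) were dropped, which kept 7453. A probe set near 0 in 1 group could be dropped for that, with a higher mean signal. Groups were compared with lmFit and eBayes with a variance trend (limma 3.58.1, R 4.3.3). Tests were two-sided, and p-values were adjusted by Benjamini-Hochberg over all tested probe sets. The prior carried 5.05 degrees of freedom and the arrays 2. Every member is named; values by array were given for members past the test or of large change, and for examples of each role. Promoters came from a RefSeq table. The members and lists were chosen with earlier results of these data known. Alternatives covered pseudocount, scaling, filter, variance model, replicate block, probe set and left-out arrays, where the lone array of a group is assumed to vary like the other group.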

Additional observations from a re-analysis of the deposited data

How the results depend on the processing

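The 3 falls among the peroxisome genes became 0 with no variance trend in limma, and ranged from 2 to 4 when 1 array was left out; the cause was not tested. Among the other peroxisomal genes the 5 falls became 0 with no variance trend and ranged from 3 to 5 with an array left out. The 1 rise became 0 with no variance trend, with no filter or with the lowest 60% left out, and ranged from 0 to 1 with an array left out. Signs changed for 6 genes, in 10 of 340 values. These were Pex6 (0.0389) and Amacr (0.0525) after median centring, Idh1 (-0.0039) after quantile normalization and Cat with its second probe set (0.21). With an array left out log2 changes ran from -0.70 to 0.21 for Phyh, from -0.0717 to 0.0170 for Amacr, from -0.19 to 0.0014 for Scp2 and from -0.15 to 0.15 for Idh1. Same-numbered arrays did not deviate together (correlation -0.06), which with 2 arrays per group cannot exclude that they were paired. With the replicate block the peroxisome genes had 3 falls and 0 rises and the other peroxisomal genes 5 and 1. Of these 340 values 297 kept the sign and the side of the threshold, 32 lost a call and 1 gained one. For the number of calls, all alternatives not named here stayed within 1.5 times. The 4 arrays limit the precision of every value.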
